A study of Sus scrofa with 6 samples.

Results

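Potassium channels and their HCN relatives set how readily a neuron fires. The members described here were fixed by name as 39 genes for voltage-gated, calcium-activated and sodium-activated potassium channels, their auxiliary subunits and HCN2. Of these, 37 had a row among 17201 listed genes, and all 37 passed the filter on low counts that left 14373 genes for testing. The sodium-activated channel genes KCNT1 and KCNT2 are not analysed here.

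RNA was sequenced from the prefrontal cortex of 6 pigs (Sus scrofa) aged 3 months. Animals 391, 392 and 393 came from early pregnancies dosed with 75 mg/kg of valproic acid (VPA). Animals 401, 402 and 408 were controls, labelled as untreated. VPA is an anticonvulsant that also inhibits histone deacetylases, and prenatal exposure to it serves in this series to model autism in the pig. The question is whether cortical expression of the channel genes differed between exposed and control animals. No source used here states litter, sex or batch. The p-values weigh the group difference against the spread between these animals, estimated with information shared over genes. Litter or batch, if split along the groups, cannot be told apart from exposure.

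Pore-forming potassium channel subunits assemble around a central pore that lets potassium leave the cell, which ends action potentials and holds the membrane near rest. Kv1, Kv3 and Kv4 channels open on depolarisation and shape spike threshold, repolarisation and firing delay. Kv7 channels carry the M-current that damps repetitive firing, and calcium-activated channels couple calcium entry to afterhyperpolarisation. HCN channels open on hyperpolarisation and carry a mixed cation current. Auxiliary subunits change the trafficking and gating of the pores to which they bind.

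Total counts per library ran from 16285517 to 17989032, so that 1 CPM, a count scaled to the library total, stood for 16.29 to 17.99 reads. Member counts in a library ran from 11 to 6583, and the lowest was 173 when KCNS1 was left aside. Reads of EIF1AY, a Y-linked gene, numbered 450 to 548 in VPA 391, VPA 393, control 402 and control 408, and at most 2 in VPA 392 and control 401. Markers of striatal projection neurons, which lie beneath the cortex, summed to 174, 196 and 557 CPM in VPA 391, VPA 392 and VPA 393, against 138 to 158 CPM in control libraries. Of the 10 striatal markers, ISL1 was at 0 in at least 1 library, 8 were tested and all 8 had positive log2 fold changes (median 1.16). VPA 393 stood apart for these markers, and values without it are given for several members. Listed markers of glutamatergic neurons were present in all libraries, with none at 0. They summed to 5632 to 5853 CPM in VPA and 5937 to 6090 CPM in controls, with CAMK2A and NRGN the highest among them.

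Expression per gene length spanned a 376-fold range among the members. Levels between genes are compared as FPKM, which divides reads by gene length and depth. DPP6, a Kv4 auxiliary subunit gene, was the highest at 83.6 ± 1.95 FPKM in VPA and 90.8 ± 2.22 FPKM in controls (SD, n = 3 each). KCNF1, a modifier subunit gene, followed with 59.7 ± 1.64 FPKM in VPA and 63.3 ± 1.84 FPKM in controls. HCN2 came next with 45.3 ± 2.78 FPKM in VPA and 41.5 ± 1.25 FPKM in controls. In all, 23 members averaged at least 10 FPKM and 8 lay under 5 FPKM. The lowest was KCNS1 at 0.245 ± 0.106 FPKM in VPA and 0.219 ± 0.0504 FPKM in controls. These distances between genes were far larger than any distance between the groups.

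**Figure D1:**
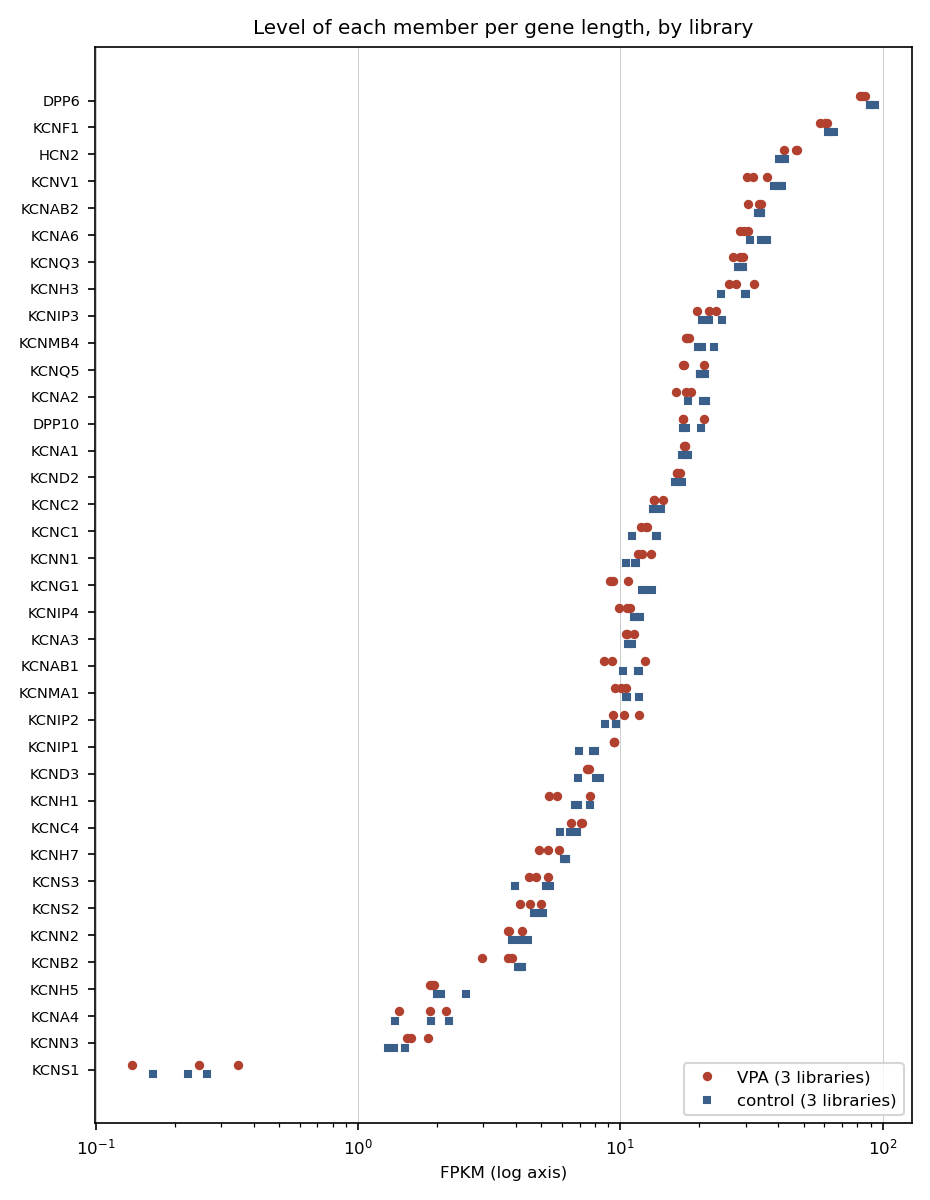
FPKM of the 37 measured members (horizontal log axis), ordered by mean level, with the VPA libraries above the control libraries in each row and 1 point per library. DPP6 is at the top with a mean of 87.2 FPKM over all libraries and KCNS1 at the bottom with 0.232.

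No member passed an adjusted p of 0.05, yet most lay on the lower side in VPA cortex. Of the 37 members, 0 were called by edgeR's quasi-likelihood test with Benjamini-Hochberg adjustment over all genes, where 0.362% of all genes were. At an unadjusted p under 0.05 stood 12 members, 11 lower and 1 higher in VPA. DESeq2 called 2 of the 37 (5.41%), beside 3.14% of the 13863 genes to which it gave an adjusted p. The 11 are 29.7% of the members, beside 7.47% of all genes tested that were lower at that p and 9.49% of genes with a mean of at least 10 CPM. The 1 that was higher is 2.70% of the members, beside 8.69% of all genes. Log2 fold changes were negative in 28 members (75.7%, beside 49.5% of all genes tested) and positive in 9, with a median of -0.06 beside 0.0018 over all genes tested. All were small: the largest was 0.38 in size.

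In 10 members all VPA libraries lay below all control libraries (27.0%, beside 9.07% of all genes tested and 11.0% of genes with at least 10 CPM). In 3 members, KCNIP1, KCNN1 and KCNN3, all VPA libraries lay above (8.11%, beside 12.1%). The 11 members lower at an unadjusted p under 0.05 became 7 without VPA 392 and 7 without control 408. Without VPA 393 there were 11 lower and 2 higher. Scaling by library size alone gave 10 lower and 3 higher, in place of 11 and 1. The summed level of the members was 3767, 3719 and 3802 CPM in VPA 391, 392 and 393, against 3976, 3931 and 4023 CPM in control 401, 402 and 408. These sums did not overlap. In bulk tissue, fewer cells of a type and less RNA per cell cannot be told apart.

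**Figure D2:**
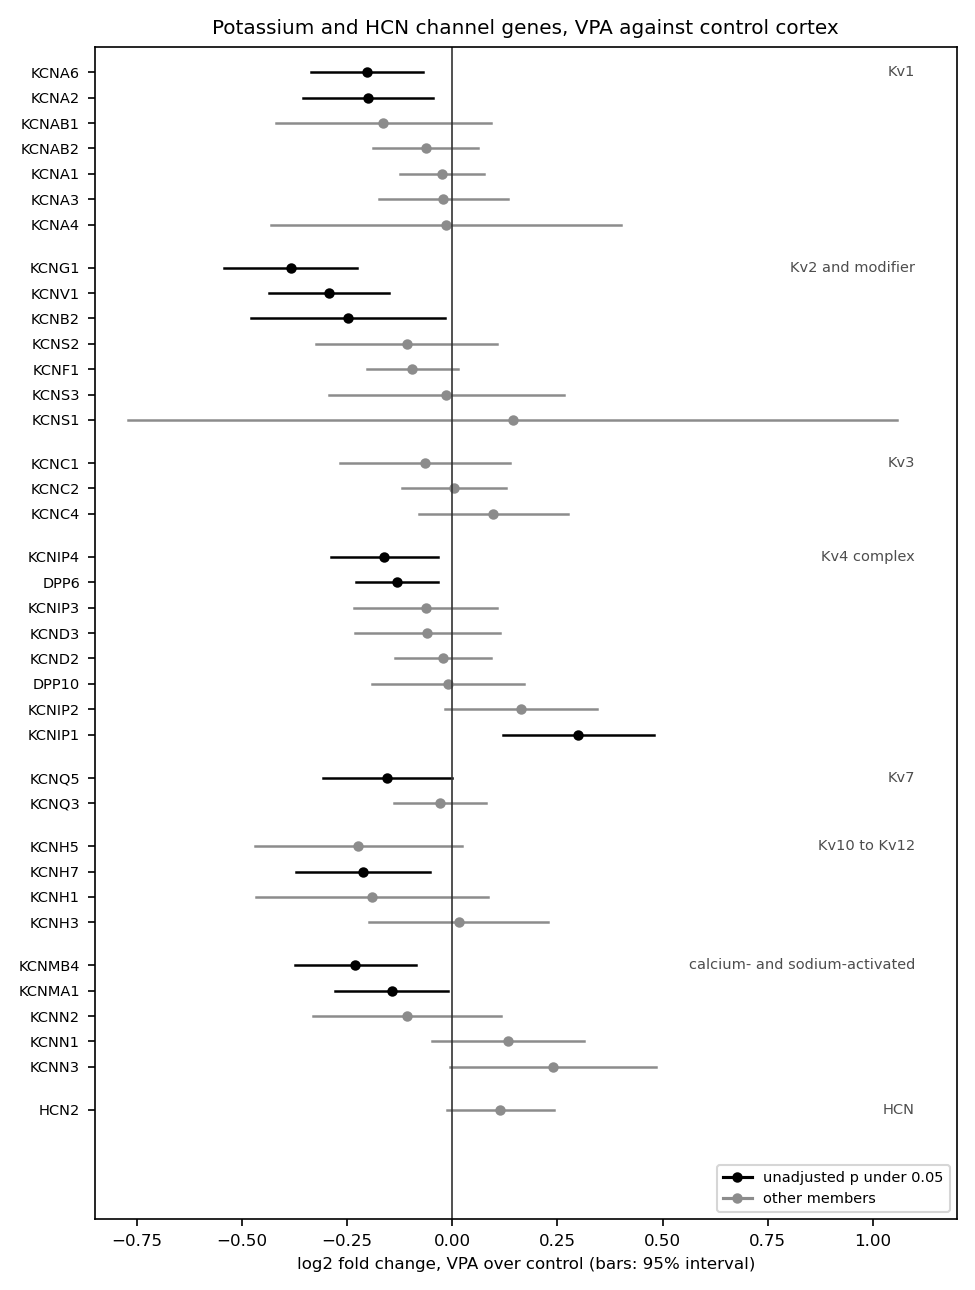
Fitted log2 fold change (VPA over control, horizontal axis) of each tested member with its 95% interval, grouped by subfamily, with members at an unadjusted p under 0.05 in black. Most points lie left of 0, KCNG1 lies farthest left at -0.38, and KCNIP1 is the only black point to the right.

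The modifier subunits held the 2 members with the lowest p. Modifier or silent subunits form no channel alone and change the gating of Kv2 pores when they join them. KCNG1, which encodes such a subunit, had 64.6, 62.9 and 74.2 CPM in VPA 391, 392 and 393, against 83.5, 85.9 and 91.6 CPM in control 401, 402 and 408. Each VPA library lay below each control. A log2 fold change of -0.38 ± 0.071 (SE), or -23.4%, came with an edgeR adjusted p of 0.0535 just outside the threshold. The fold change kept its direction without each library in turn, from -0.46 to -0.34, at adjusted p values from 0.0536 to 0.179. KCNG1 was called by DESeq2 (adjusted p = 0.000926) and by edgeR without a filter (0.0300), with robust dispersion (0.0312) and with EIF1AY as a covariate (0.0443). Its call therefore depends on the tool and setting.

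KCNV1, another modifier subunit gene, had 104, 99.1 and 118 CPM in the VPA libraries, against 131, 134 and 126 CPM in the controls. The groups did not overlap, and VPA 393 was the nearest to the controls. The fit gave a log2 fold change of -0.29 ± 0.065 (edgeR adjusted p = 0.0726), and -0.36 without VPA 393. DESeq2 called it too (adjusted p = 0.00811), as did edgeR without a filter (0.0491). KCNB2, the Kv2 pore gene of the list, had 22.1, 17.6 and 22.9 CPM in VPA, against 24.2, 24.6 and 25.0 CPM in controls. The VPA values were all below the controls, with VPA 392 the lowest. Its log2 fold change of -0.25 ± 0.10 (edgeR adjusted p = 0.275) was -0.14 without VPA 392 and -0.31 without VPA 393.

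KCNF1, the best expressed modifier, had 122, 117 and 124 CPM in VPA, against 127, 126 and 133 CPM in controls. These groups were narrowly apart, and the log2 fold change was -0.10 ± 0.049 (edgeR adjusted p = 0.372). KCNS2 and KCNS3, modifiers of the same class, had log2 fold changes of -0.11 and -0.01 with overlapping groups. KCNS2 had 20.3 ± 1.92 CPM in VPA and 21.6 ± 0.891 CPM in controls (SD, n = 3 each). KCNS3 had 20.9 ± 1.71 CPM in VPA and 20.9 ± 3.32 CPM in controls. Without VPA 393 the log2 fold changes were -0.04 for KCNS2 and 0.04 for KCNS3. KCNS1 was too sparse to place, with a 95% interval from -0.77 to 1.06. Of the 7 genes of Kv2 and its modifiers, 6 had negative fold changes and 3 an unadjusted p under 0.05, all lower.

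Among the Kv1 genes, KCNA6 and KCNA2 had the lowest p. The fold changes of the other pore genes lay close to 0, with a wide interval for KCNA4. KCNA6, a Kv1 pore subunit gene and the highest of the Kv1 pore genes per length, had 290, 280 and 270 CPM in VPA 391, 392 and 393, against 341, 294 and 324 CPM in control 401, 402 and 408. The groups were separated only by the gap between VPA 391 and control 402. KCNA6 had a log2 fold change of -0.20 ± 0.060 (edgeR adjusted p = 0.138). KCNA2, a pore subunit of axonal Kv1 channels, had 228, 208 and 238 CPM in VPA, against 232, 264 and 271 CPM in controls. Here VPA 393 lay above control 401, so the groups overlapped. The fitted difference was -0.20 ± 0.070 on the log2 scale (edgeR adjusted p = 0.196).

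KCNA1, which joins KCNA2 in axonal channels, had 152, 153 and 152 CPM in VPA, against 156, 149 and 155 CPM in controls. Its log2 fold change of -0.02 had a 95% interval from -0.12 to 0.08. KCNA3 had 35.9 ± 1.27 CPM in VPA and 36.1 ± 0.732 CPM in controls (SD, n = 3 each), an interval from -0.17 to 0.13. KCNA4, whose product inactivates rapidly, averaged 13.5 ± 2.74 CPM in VPA and 13.6 ± 3.13 CPM in controls. The log2 fold change of KCNA4 was -0.01 with a wide 95% interval, from -0.43 to 0.40. It was -0.15 without VPA 393 and 0.13 without VPA 392. KCNAB2, the main beta subunit gene by level, had 368, 375 and 334 CPM in VPA, against 365, 376 and 374 CPM in controls. VPA 393 alone was low, and the log2 fold change was -0.06 ± 0.056 (edgeR adjusted p = 0.630) and -0.0072 without that library.

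KCNAB1, the other beta subunit gene, had 64.6, 68.9 and 92.4 CPM in VPA 391, 392 and 393, against 76.3, 86.7 and 87.9 CPM in controls. VPA 393 was the highest of all libraries for it, while the other two VPA libraries were the lowest. This gave a log2 fold change of -0.16 ± 0.12, which was -0.33 without VPA 393, -0.08 without VPA 391 and -0.10 without VPA 392. All 7 Kv1 genes had negative fold changes, but 2 had an unadjusted p under 0.05. Summed over these 7 genes, Kv1 expression was 120 ± 1.12 FPKM in VPA and 130 ± 2.94 FPKM in controls (SD, n = 3 each).

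Kv3 genes, whose channels allow fast spiking and are prominent in parvalbumin interneurons, were close in both groups. KCNC2 had 144, 132 and 133 CPM in VPA, against 132, 140 and 132 CPM in controls. KCNC2 had a log2 fold change of 0.0033 ± 0.056 (edgeR adjusted p = 0.984), with a 95% interval from -0.12 to 0.13. KCNC1 had 46.9 ± 1.35 CPM in VPA and 48.7 ± 5.76 CPM in controls, with control 401 the lowest library at 42.0. KCNC1 had a log2 fold change of -0.06, which was -0.17 at an unadjusted p under 0.05 without control 401. KCNC4 had 45.9 ± 2.46 CPM in VPA and 42.5 ± 3.11 CPM in controls (SD, n = 3 each). The log2 fold change of KCNC4 was 0.10, and 0.15 without VPA 393 and 0.04 without control 402. None of the 3 had an unadjusted p under 0.05 with all libraries in the fit. The marker list read for parvalbumin interneurons also holds GAD1, GAD2 and SLC32A1, which mark inhibitory neurons in general. It had a median log2 fold change of 0.08, with 1 of 9 negative and none at an unadjusted p under 0.05. The 1 negative gene was PVALB itself (-0.09), with 46.0 ± 2.12 CPM in VPA and 48.4 ± 4.51 CPM in controls. The list summed to 696 to 764 CPM in VPA and 667 to 694 CPM in controls. GAD1 alone held 352 to 367 CPM in VPA and 323 to 337 CPM in controls. VPA 393 had the highest sum. Its TAC1 level was 38.9 CPM, against 12.7 and 13.8 CPM in VPA 391 and 392.

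**Figure D3:**
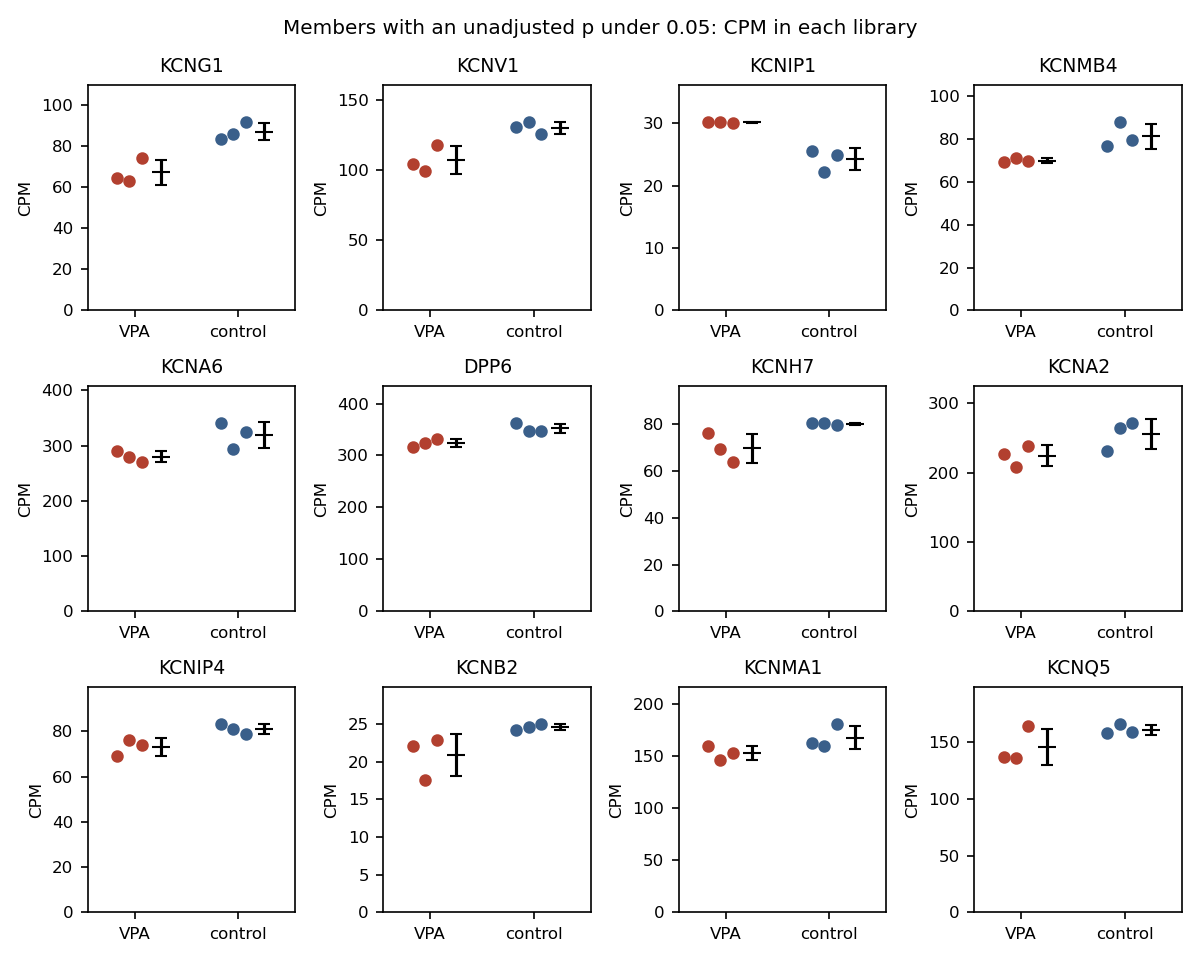
CPM in each library (points, vertical axes from 0) for the 12 members with an unadjusted p under 0.05, with the mean and SD of each group (bars, n = 3). The VPA mean lies below the control mean in 11 panels and above it in the panel of KCNIP1, where all VPA libraries have about 30 CPM; the groups overlap for KCNA2, KCNMA1 and KCNQ5.

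The Kv4 complex differed among its auxiliary subunits, while its pores were close. Kv4 pores carry the A-type current of dendrites and are bound by calcium-sensing KChIP proteins and by DPP proteins, which speed their gating. KCND2 had 91.2, 93.7 and 92.0 CPM in VPA, against 93.2, 89.7 and 95.9 CPM in controls (95% interval of the log2 fold change from -0.14 to 0.09). KCND3 had 57.4 ± 0.404 CPM in VPA and 59.3 ± 6.09 CPM in controls (SD, n = 3 each). Both pores overlapped between the groups, and KCND2 made up 68.8 ± 0.249% of their summed FPKM in VPA and 68.3 ± 1.75% in controls.

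KCNIP1, a KChIP gene, was the only member higher in VPA at an unadjusted p under 0.05. It had 30.1, 30.1 and 30.0 CPM in VPA 391, 392 and 393, against 25.6, 22.2 and 25.0 CPM in control 401, 402 and 408. The VPA libraries were almost equal and lay above all controls. On the log2 scale the difference was 0.30 ± 0.081 (edgeR adjusted p = 0.116), and from 0.23 to 0.33 without each library in turn. KCNIP4 lay the other way, with 68.9, 76.3 and 74.1 CPM in VPA, against 83.2, 80.9 and 79.0 CPM in controls. Each VPA library was below each control, at a log2 fold change of -0.16 ± 0.058 (edgeR adjusted p = 0.206).

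KCNIP2 had 71.4, 78.4 and 89.7 CPM in VPA, against 66.2, 73.1 and 72.7 CPM in controls. VPA 393, the library with high striatal markers, was the highest, and the log2 fold change of 0.16 ± 0.082 was 0.08 without it and 0.11 without control 401. The part of the striatal markers in this value was not tested. KCNIP3, the best expressed KChIP gene, had 129 ± 10.5 CPM in VPA and 134 ± 11.9 CPM in controls (SD, n = 3 each). The log2 fold change of KCNIP3 was -0.06, and turned to 0.0043 without VPA 393. By FPKM, KCNIP1 made up 18.2 ± 0.568% of the KChIP sum in VPA and 15.0 ± 0.997% in controls, while KCNIP4 made up 20.1 ± 0.570% in VPA and 22.8 ± 0.380% in controls.

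**Figure D4:**
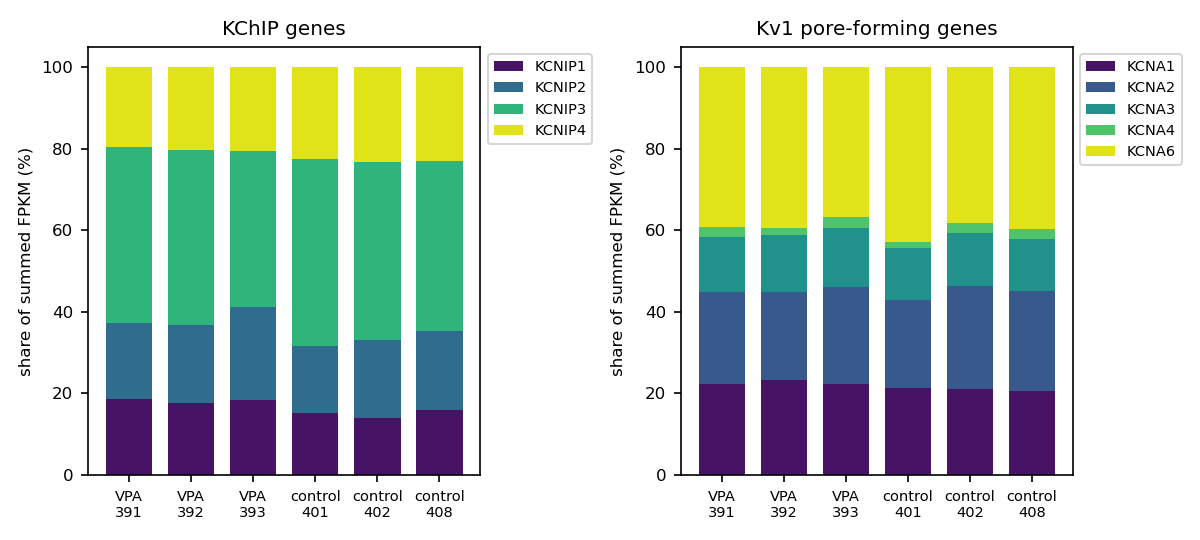
Share of the summed FPKM (vertical axis, percent) held by each KChIP gene (left) and each Kv1 pore gene (right) in every library, with the VPA libraries left of the control libraries. The share of KCNIP1 lies between 17.6% and 18.7% in VPA and between 13.9% and 15.9% in controls. KCNIP4 holds 19.5% to 20.6% in VPA and 22.4% to 23.1% in controls. The shares of KCNA1 (22.3% to 23.3% in VPA, 20.6% to 21.4% in controls) and KCNA3 (13.5% to 14.4% in VPA, 12.8% to 13.1% in controls) do not overlap either. The log2 fold changes of KCNA1 and KCNA3 were both -0.02, and a share also moves with the other genes in the sum.

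DPP6, which encodes the dipeptidyl-peptidase-like partner of Kv4 channels, had 317, 324 and 332 CPM in VPA, against 362, 348 and 347 CPM in controls. The groups did not overlap, and the log2 fold change was -0.13 ± 0.044 (edgeR adjusted p = 0.180). DPP10, its paralogue, had 98.0 ± 10.4 CPM in VPA and 97.8 ± 8.29 CPM in controls (SD, n = 3 each), with a 95% interval from -0.19 to 0.17. The log2 fold change of DPP10 was -0.01, and -0.10 without VPA 393 and 0.06 without control 408. Of the 8 genes of the complex, 2 were lower and 1 higher at an unadjusted p under 0.05.

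Kv7 subunits carry the M-current, which muscarinic receptors close. KCNQ5 had 137, 136 and 164 CPM in VPA 391, 392 and 393, against 158, 166 and 159 CPM in control 401, 402 and 408. VPA 391 and VPA 392 were below all controls, and VPA 393 was among them. The log2 fold change was -0.15 ± 0.069 (edgeR adjusted p = 0.304) and -0.24 without VPA 393. KCNQ3 had 334, 306 and 326 CPM in VPA, against 334, 325 and 319 CPM in controls, with overlapping groups. Its log2 fold change of -0.03 ± 0.050 (edgeR adjusted p = 0.822) turned to 0.0058 without VPA 392.

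Among the ether-à-go-go family, KCNH7, an erg-type channel gene, had 76.2, 69.3 and 63.8 CPM in VPA, against 80.4, 80.4 and 79.5 CPM in controls. The controls were nearly equal and each VPA library lay below them. KCNH7 had a log2 fold change of -0.21 ± 0.072 (edgeR adjusted p = 0.184), and -0.15 without VPA 393. KCNH5, an eag-type gene, had 16.7, 17.1 and 17.3 CPM in VPA, against 18.4, 17.9 and 22.9 CPM in controls. Its groups were apart by little, and control 408 held most of the distance (log2 fold change -0.22 ± 0.11, and -0.10 without control 408). KCNH1, the other eag-type gene, had 23.6, 22.0 and 31.6 CPM in VPA, against 31.5, 27.6 and 28.4 CPM in controls.

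VPA 393 was the highest library for KCNH1, and its log2 fold change of -0.19 ± 0.12 was -0.36 without that library and -0.09 without VPA 392. KCNH3, an elk-type gene enriched in forebrain and the highest of the family by FPKM, had 120, 150 and 128 CPM in VPA, against 139, 113 and 140 CPM in controls. Its spread within each group exceeded the difference between them (log2 fold change 0.02 ± 0.096, edgeR adjusted p = 0.956), and the sign changed to -0.08 without VPA 392 and to -0.08 without control 402.

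The BK channel, opened by calcium and voltage together, was represented by its pore gene KCNMA1 and the neuronal beta subunit gene KCNMB4. KCNMB4 had 69.4, 71.2 and 69.6 CPM in VPA, against 76.7, 88.0 and 79.7 CPM in controls. All VPA libraries were below all controls, at a log2 fold change of -0.23 ± 0.065 (edgeR adjusted p = 0.127), or -14.7%. KCNMA1 had 160, 146 and 153 CPM in VPA, against 162, 160 and 180 CPM in controls. VPA 391 and control 402 were level at 160 CPM, and the log2 fold change of -0.14 ± 0.061 (edgeR adjusted p = 0.276) was -0.09 without control 408.

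SK channels, opened by calcium alone, lay on the other side for 2 of 3 genes. KCNN3 had 14.5, 15.0 and 17.3 CPM in VPA, against 13.0, 12.2 and 14.2 CPM in controls. The VPA libraries were all above the controls, and VPA 393 was the highest (log2 fold change 0.24 ± 0.11, edgeR adjusted p = 0.318, and 0.16 without VPA 393). KCNN1 had 30.4 ± 1.86 CPM in VPA and 27.5 ± 1.26 CPM in controls (SD, n = 3 each), again without overlap. Its log2 fold change of 0.13 was 0.07 without VPA 391. KCNN2 had 15.2 ± 1.03 CPM in VPA and 16.2 ± 1.14 CPM in controls.

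HCN2, whose product carries the hyperpolarisation-activated current, had 158, 157 and 141 CPM in VPA 391, 392 and 393, against 143, 140 and 135 CPM in control 401, 402 and 408. VPA 393 lay among the controls and the other two VPA libraries above them. The log2 fold change was 0.11 ± 0.058 (edgeR adjusted p = 0.361), 0.17 without VPA 393 and 0.07 without VPA 391.

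Other potassium channel genes and the proteins that anchor or regulate the channels were read from a list of 85 names, of which 76 had a row and 66 were tested. At an unadjusted p under 0.05, 12 were lower (18.2%, beside 7.47% of all genes) and 5 higher (7.58%, beside 8.69%) in VPA, and 0 passed the adjusted threshold. The 19 tested anchoring and regulatory genes held 7 of the 12 and none of the 5. PEX5L, which encodes the HCN auxiliary subunit TRIP8b, had 306, 292 and 325 CPM in VPA, against 348, 373 and 407 CPM in controls (log2 fold change -0.30 ± 0.065, edgeR adjusted p = 0.0690). All VPA libraries were below all controls, in the direction opposite to HCN2.

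KCNJ10, the inward rectifier gene of astrocytes and oligodendrocytes, had 428, 405 and 380 CPM in VPA, against 327, 313 and 332 CPM in controls (log2 fold change 0.31 ± 0.057, edgeR adjusted p = 0.0535). Its direction was opposite to that of most members. KCNK10, a mechanically gated background channel gene, had 22.1 ± 2.23 CPM in VPA and 15.2 ± 1.62 CPM in controls (SD, n = 3 each, also for the next 2 genes). Its log2 fold change was 0.53 ± 0.11 (edgeR adjusted p = 0.0667). KCNJ9, a G protein-gated inward rectifier gene, had 175 ± 5.13 CPM in VPA and 208 ± 18.3 CPM in controls. The log2 fold change of KCNJ9 was -0.26 ± 0.066 (edgeR adjusted p = 0.10). KCNMB1, the BK beta subunit gene of smooth muscle, was sparse, at 1.73 ± 0.0988 CPM in VPA and 0.728 ± 0.167 CPM in controls. The fit gave KCNMB1 a log2 fold change of 1.23 ± 0.33 (edgeR adjusted p = 0.111).

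Pan-neuronal and glutamatergic neuron markers lay mostly on the lower side in VPA, and oligodendrocyte and astrocyte markers mostly on the higher side. Of 10 glutamatergic neuron markers, 8 had negative log2 fold changes and 6 were lower at an unadjusted p under 0.05 (median -0.14). Of 8 measured pan-neuronal markers, 7 were negative and 3 lower at that p (median -0.08). Their sum was 9160 to 9624 CPM in VPA and 9808 to 9971 CPM in controls. Oligodendrocyte markers were positive in 10 of 10, 7 of them at that p (median 0.34), and summed to 16660 to 18774 CPM in VPA and 12816 to 17190 CPM in controls. Astrocyte markers were positive in 6 of 7, 4 of them at that p (median 0.18), and summed to 8203 to 9518 CPM in VPA and 7557 to 8248 CPM in controls. Oligodendrocyte precursor markers were likewise positive in 6 of 7, with 4 at that p (median 0.18), and summed to 822 to 915 CPM in VPA and 668 to 784 CPM in controls. None of these markers was at 0 in any library, and 0 passed the adjusted threshold. Their part in the members' values was not tested.

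**Figure D5:**
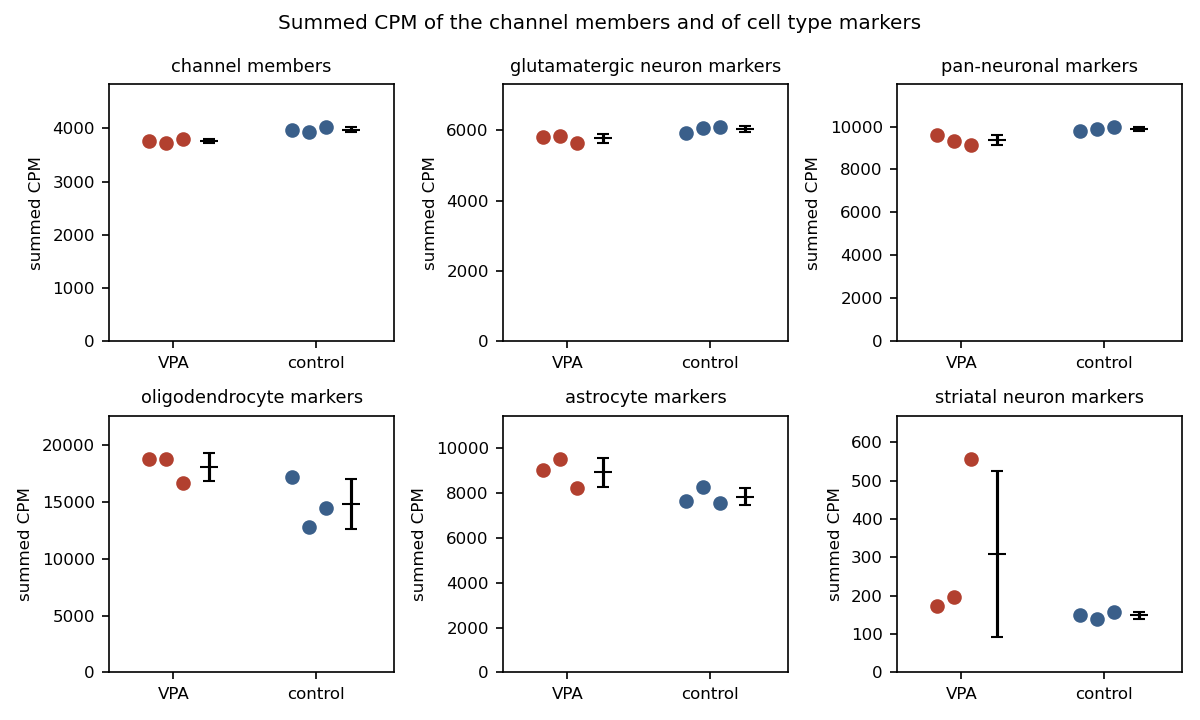
Summed CPM (vertical axes from 0) of the 37 members and of marker lists of 5 cell classes in each library (points), with the mean and SD of each group (bars, n = 3). The members and both neuronal marker lists are lower in all VPA libraries than in all controls, the oligodendrocyte and astrocyte sums overlap, and striatal markers are high in VPA 393 at 557 CPM.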

How the data were processed

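For each of 6 libraries the authors deposited a table of raw counts and a table of FPKM, per the file headers and names. TRIzol served to extract total RNA and a VAHTS Universal V6 kit to build the libraries, per the labels' protocols. No source used here names the aligner, counter, strandedness, build or annotation, so no coordinates are printed, and reads shared with overlapping or near-identical genes cannot be separated. The deposited FPKM equalled counts over file totals and a constant length in all 16665 genes compared (relative tolerance 0.001). Of 17201 names, 24 had become dates. All 37 measured members matched RefSeq symbols (Sscrofa11.1).

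CPM is the count scaled to the file total, given as mean ± SD. Counts were tested in R 4.3.3 with edgeR 4.0.16 (filterByExpr, TMM factors of 0.993 to 1.01, glmQLFit and glmQLFTest, no covariate, 4 residual degrees of freedom), with Benjamini-Hochberg adjustment over all 14373 genes and a threshold of 0.05. Intervals of fold changes are 95% and use the test's moderated degrees of freedom. All pairs of libraries differed beyond sampling noise (chi-square per degree of freedom 5.74 to 12.8 over 15 pairs). The functions were tested on simulated data.

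The members and lists were chosen with earlier results of these data known. Every member is given by its values. Full statistics go to the 12 with the lowest p, to the highest by FPKM in each of 8 subfamilies and, outside the members, to the 5 other channel and regulator genes with the lowest p; remaining names follow their subfamily. Alternatives were RLE, upper quartile or no scaling factors, no filter or a mean of at least 1 CPM, DESeq2 1.42.0, limma 3.58.1 (voom; also a trend fit of log2 FPKM with a pseudocount of 1 or 0.1, with a mean FPKM of at least 0.5 or unfiltered), robust dispersion, EIF1AY level as a covariate, and each library left out.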

Additional observations from a re-analysis of the deposited data

How the results depend on the processing

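No paired analysis was possible because the animal numbers are not shared between groups. Over 18 alternatives the count of negative members ran from 25 to 29, and 28 of 37 members kept their sign in all of them, among them all 12 with an unadjusted p under 0.05. Of these 12, 6 kept that p without each library in turn. The number of called members was 0 with edgeR as reported, 2 with DESeq2, 2 with no filter, 1 with robust dispersion and 1 with the EIF1AY covariate, and 0 without each library in turn. The number of genes called, 52 as reported, was 141 with no filter, 435 with DESeq2, 30 with limma-voom, 168 with robust dispersion and 2, 2 and 1 with limma on FPKM (pseudocount 1, pseudocount 0.1, no filter). It was 0 to 66 without each library in turn. Members lower at an unadjusted p under 0.05 numbered 6 with limma on FPKM without a filter and 7 to 11 without each library in turn. Members higher numbered 3 with library size only and 1 to 2 without each library. The median over members was -0.048 with limma on FPKM without a filter and -0.092 to -0.056 without each library in turn. The sign changed in at least 1 alternative for 9 members: KCNA4, KCNS1, KCNS3, KCNC2, KCND2, KCNIP3, DPP10, KCNQ3 and KCNH3. KCNS1 ranged from -0.22 to 0.44 and KCNA4 from -0.19 to 0.15. KCNC2 had a log2 fold change of -0.0020 with no filter and -0.051 to 0.028 without each library in turn. The ranges without each library were -0.069 to 0.0058 for KCNQ3 and -0.085 to 0.072 for KCNH3. The cause was not tested. Depth limited KCNS1, whose 95% interval ran from -0.77 to 1.06.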
